A study of Drosophila melanogaster with 2 samples.

Results

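Accessible chromatin was examined at 10 genes of the fly muscle programme in Drosophila S2 cells: 4 regulators (twi, sna, Mef2 and nau) and 6 sarcomere genes (Mhc, sls, bt, up, wupA and Mlc2). A site belonged to a gene when the summit of a deposited ATAC-seq peak lay in the gene's annotated span or within 5 kb of either side. By this rule 71 of the 35535 listed summits were members, 45 at regulators and 26 at sarcomere genes. No summit fell in the loci of 2 of these genes at once.

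In the mesoderm of the fly embryo, the bHLH factor Twist (twi) and the zinc-finger repressor Snail (sna) specify the cells from which muscle arises. Twist activates Mef2, whose MADS-box protein then drives muscle differentiation genes, and nautilus (nau) encodes the fly relative of vertebrate MyoD. Their eventual targets build the sarcomere: the myosin heavy chain Mhc and regulatory light chain Mlc2 in thick filaments, troponin T (up) and troponin I (wupA) on thin filaments, and the giant proteins Sallimus (sls) and projectin (bt), which link filaments elastically. S2 cells are not muscle: the line was derived from late embryos and resembles hemocytes, the blood cells of the fly.

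ATAC-seq reads open DNA from where the Tn5 transposase inserts adapters. The series had 1 group, unmodified S2 cells grown at 25 °C in serum-supplemented Schneider's medium, with 2 libraries of 2000000 cells and 12 PCR cycles each. The series has 1 peak list with no value per library, and whether the libraries were pooled for it is not stated. No value here therefore has a replicate error, there is no test over samples, and the comparisons between genes are descriptions. For each summit, the fold is the authors' own enrichment over the caller's local background. The pileup, recovered here as a whole number, counts the fragments overlapping the summit, and its interval (95% Poisson) covers counting error only. All 8 hemocyte markers examined (srp, zfh1, Hml, Pxn, NimC1, eater, Sr-CI and He) had a peak within 250 bp of an annotated gene end, against 60.4% of 13946 protein-coding genes. He (right end at 2L 13972947) and NimC1 (left end at 13973158) are neighbours whose end windows overlap, so a peak there can count for both. The median pileup of these end peaks was 72, against 98 over all protein-coding genes that had one, and all 10 non-muscle actomyosin genes examined had one too, so the list does not by itself identify the cell type. Positions are those of dm6, counted from 1. The gene table gives spans without strand, so ends are called left and right, and which of them is the transcription start is not stated.

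The regulator loci were denser in accessible sites than the sarcomere loci, and the sites were stronger by median fold and pileup. Over the gene spans with their flanks there were 2.89 summits per 10 kb at regulators (45 in 156 kb) and 1.11 at sarcomere genes (26 in 234 kb), against 3.01 over the merged loci of all protein-coding genes. Inside the spans alone the contrast was wider, with 33 summits (2.86 per 10 kb) in the regulators and 9 (0.518 per 10 kb) in the sarcomere genes, against 2.67 over the merged spans of all protein-coding genes. Of these 9 summits 7 lay in sls, without which the sarcomere spans had 0.204 per 10 kb, and without twi, the longest regulator, the regulator spans had 4.37. The median fold was 4.20 (quartiles 2.66 and 7.47) at regulators and 3.22 (2.20 and 4.26) at sarcomere genes, with 3.61 over the whole list. The median pileup was 68 fragments (quartiles 33 and 125) at regulators and 34.5 (23.3 and 54) at sarcomere genes, with 56 over the whole list. A pileup of at least 50 was reached by 27 of the 45 regulator summits and 7 of the 26 sarcomere summits, against 55.5% of all summits. Without Mef2 the regulators had 20 summits, of which 10 reached it, and a median pileup of 53.5, below that of the whole list. The ranges overlapped, from 20 to 443 fragments at regulators and from 20 to 97 at sarcomere genes.

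**Figure D1:**
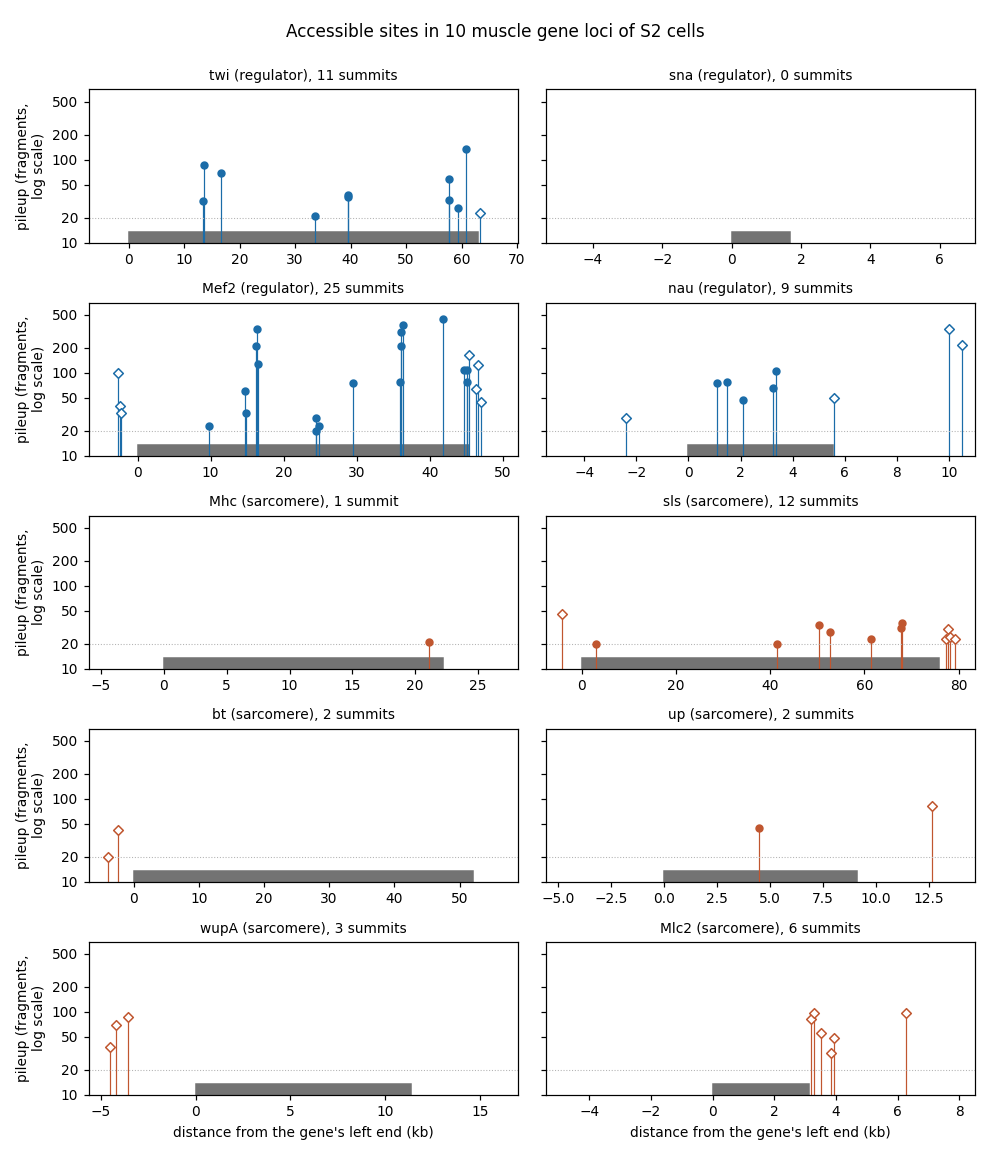
Summits of the 10 loci by distance from the gene's left end (kb), with pileup in fragments on a log scale; the grey bar is the annotated gene, filled circles are summits inside it, open diamonds are summits in the 5 kb flanks, and the dotted line marks 20 fragments, the lowest pileup in the list. Mef2 carries groups of tall sites along its length (25 summits), sna has 0, and the sarcomere genes bt, wupA and Mlc2 have 0 inside their spans.

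The 2 gene groups were not uniform. Of the 4 regulators 3 (twi, Mef2 and nau) had at least 1 summit in their locus, as did all 6 sarcomere genes, against 88.0% of protein-coding genes. Summits inside the span were found in 3 of the 4 regulators and in 3 of the 6 sarcomere genes (Mhc, sls and up), against 43.9% of protein-coding genes. A peak at an annotated end was found for 3 of the 4 regulators (twi, Mef2 and nau) and for 1 of the 6 sarcomere genes (Mlc2), beside the 60.4% given above. With a −log10 q of at least 10, or with folds at or above the list's median, 1 regulator (Mef2) and 1 sarcomere gene (Mlc2) had one. The share of all protein-coding genes under these thresholds is not given here, and the 60.4% does not apply to them. In order of density per 10 kb of locus the genes were nau (5.79), Mlc2 (4.58), Mef2 (4.52), twi (1.51), wupA (1.40), sls (1.40), up (1.05), bt (0.322), Mhc (0.311) and sna (0). The median over protein-coding genes was 3.65 (quartiles 1.72 and 5.63), so nau, Mlc2 and Mef2 lay above it and the other 7 below the lower quartile. With no replicate the spread of these densities is not known, and neighbours in that order, such as Mlc2 and Mef2 or bt and Mhc, cannot be told apart. Gene length was not matched here, and the median protein-coding gene is 2.16 kb long. The share of protein-coding genes at least as long, with at most as many summits inside, was 43.7% for twi and 41.2% for sna. It was 64.1% for Mef2, 65.8% for nau, 40.5% for sls, 26.8% for up and 27.8% for Mlc2. Those for Mhc, bt and wupA are given below.

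**Figure D2:**
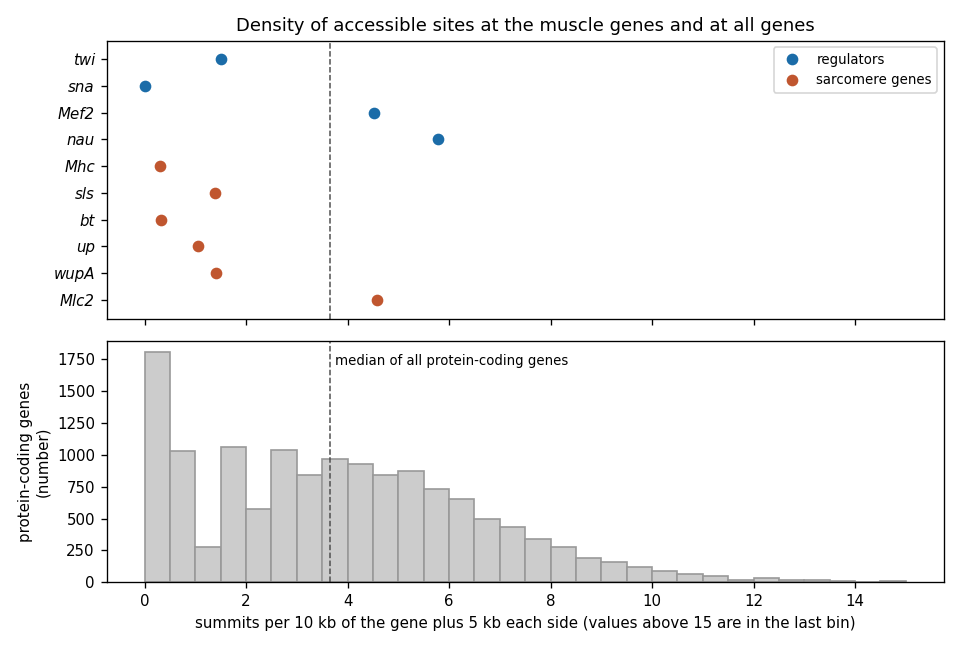
Summits per 10 kb of gene plus 5 kb each side for each of the 10 genes (upper panel, regulators above sarcomere genes) and for all 13946 protein-coding genes (lower panel, number of genes per bin of 0.5). The dashed line is the median of all genes, 3.65; nau, Mef2 and Mlc2 lie right of it, and twi, sna and 5 sarcomere genes left of it.

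Mef2 had the most summits and the tallest one. Its locus (2R 9913496 to 9958858, 45.4 kb) held 25 summits in 17 intervals, 18 of them inside the gene and in no other annotated gene. The tallest, at 2R 9955335, stood 3523 bp inside the right end with a pileup of 443 (403 to 486) and a fold of 17.5, higher than 98.8% of all summits by pileup. An interval of 643 bp farther inside held 4 summits with pileups of 77, 211, 308 and 377. Its strongest summit, at 2R 9949803, had the highest fold of any member, 19.3. Another group, 16199 to 16540 bp from the left end, was an interval of 577 bp with pileups of 207, 333 and 126. The interval of the tallest summit, that of 643 bp and that of 577 bp were wider than 94.5%, 98.8% and 98.0% of all intervals in the list.

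Mef2 had other sites between these groups. A lone summit at 2R 9943015 had a pileup of 74 and a fold of 6.87, and 3 weak summits near the middle of the gene had 28, 20 and 23. Toward its right end the pileups were 108, 108 and 78 inside the gene and 165 (141 to 192) at a summit 3 bp past the annotated end. That summit was also 258 bp from an end of Pdrg1, and its interval reached within 250 bp of it. The left end of Mef2 had no peak: the nearest summit inside was 9724 bp away with a pileup of 23. The 3 summits of the left flank, with pileups of 100, 40 and 33, lay at or inside Etf-QO, an electron-transfer flavoprotein oxidoreductase gene. In the right flank, summits with pileups of 63, 125 and 44 lay inside Pal1, a peptide-amidating enzyme gene. The local background was at its genome-wide value of 9.91 fragments in the left flank and reached 25.2 in the right one, so fold and pileup rank these sites differently.

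The sites of twi were fewer and several belonged to other genes as well. The annotated span of twi runs over 63.0 kb (2R 22985374 to 23048325) and encloses CG9896 and CG42741, among others. Of its 11 summits 4 lay within 250 bp of an end of CG9896 or CG42741 and 3 more inside CG42741. Of the 3 that lay in twi and in no other gene, away from any gene end, the strongest, at 2R 23046224, was 2101 bp inside the right end with a pileup of 134 (112 to 159) and a fold of 12.4. The others had pileups of 68 and 26. The peak at the right end was weak, with a pileup of 23 (14.6 to 34.5) at a summit 284 bp past the end. All 11 summits of twi stood on the genome-wide background, as did 8 of the 25 of Mef2.

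At nau, the shortest regulator locus with sites, 5 summits lay within the 5.54 kb gene (3R 23712814 to 23718357). Their pileups were 75, 78, 47, 66 and 104 (85.0 to 126), with folds of 3.29 to 7.47. Another summit, with a pileup of 49, lay 48 bp past the right end. The tallest sites of the locus were not in nau: pileups of 339 (304 to 377) and 216 (188 to 247) lay 4464 and 4953 bp past its right end, 510 and 21 bp from the left end of CG10365. The second of these was the member closest to the 5 kb limit. The next one out, 5560 bp past nau and within CG10365, had a pileup of 82, and the summit nearest outside the limit at any of the 10 genes, 5388 bp past Mlc2, had 42.

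Snail's gene was without any listed site. The 1.67 kb gene (2L 15476593 to 15478260) had 0 summits in its span and 0 within 5 kb, which is true of 1676 of the 13946 protein-coding genes. The nearest summit on the right was 20.7 kb away, just left of lace, a sphingolipid synthesis gene, with a pileup of 71. On the left it was 136 kb away, with a pileup of 25. The stretch between them, 159 kb, ranked 47th of 35513 gaps between neighbouring summits and 5th on 2L, and it wholly enclosed 16 annotated genes, among them worniu (wor), another gene of the Snail family. A locus without a listed peak is not shown to be closed: no summit under 20 fragments was listed anywhere.

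The myosin heavy chain gene Mhc had a single, weak site. Its 22.2 kb span (2L 16766566 to 16788766) held 1 summit, 1101 bp from the right end, with a pileup of 21 (13.0 to 32.1) and a fold of 2.02. By pileup 1.93% of all summits were lower. Neither end had a peak, and 21.1 kb of the gene lay in 1 stretch without a summit. Of the 925 protein-coding genes at least as long as Mhc, 198 held at most 1 summit inside, or 21.4%.

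The projectin gene bt was empty along its whole length. No summit lay in its 52.1 kb (4 724400 to 776474), and the only 2 of its locus were in the left flank, with pileups of 42 (30.3 to 56.8) and 20 (12.2 to 30.9). The stretch without a summit around it was 65.7 kb long, the 2nd longest on chromosome 4. Among the 301 protein-coding genes at least as long as bt, 14.0% also held none inside. The next summits outside the locus lay 19.9 kb to the left in ey, the Pax6 gene of eye development, with a pileup of 181, and 11.2 kb to the right in MED26, a Mediator subunit gene, with 159.

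Sallimus, the longest of the members at 75.9 kb (3L 2039681 to 2115611), had 12 summits, all low. The 7 inside had pileups of 20, 20, 34, 28, 23, 31 and 35, and the 5 in the flanks 46, 23, 30, 24 and 23. None of the 12 reached the whole list's median of 56, and 6 were at or below 25. A pileup of 25 or less was found for 5 of the 45 regulator summits and 8 of the 26 sarcomere summits, against 12.3% of all summits. Of the right flank's 4 summits, 3 lay inside or at the end of zormin, which encodes another sarcomeric protein with immunoglobulin domains. Inside sls 38.3 kb in 1 stretch had no summit.

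Both troponin genes lie on X and had their tallest sites at neighbouring genes. Troponin T (up, X 13593474 to 13602578) had 1 summit inside, with a pileup of 44 (32.0 to 59.1) and a fold of 4.12, and 1 at 81 (64.3 to 101) located 3536 bp past its right end within CG11178. Troponin I (wupA, X 18105568 to 18116922) had 0 inside. Its 3 flank summits had pileups of 38, 69 and 86, and the tallest lay 2 bp from the left end of Taf8, a TFIID subunit gene. At least as long as wupA were 1754 protein-coding genes, of which 15.8% held no summit inside. The median density on X was 3.36 summits per 10 kb, against 1.05 at up and 1.40 at wupA. How many copies of X the cells carried is not known from the list, and its part in these values was not tested.

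Mlc2 was the exception among the sarcomere genes. The 3.11 kb gene (3R 30171438 to 30174551) had 0 summits inside, but an interval of 558 bp over its right end, wider than 97.7% of all intervals, with pileups of 82, 97 (78.7 to 118) and 56. These summits lay 87, 173 and 386 bp past the end, and 2 more, at 32 and 48, lay farther out between genes. The sixth, at 97, was 4 bp past the right end of CG1983. By pileup the end peak of Mlc2 was lower than that of Mef2 (97 against 165 fragments, with intervals that do not overlap) and higher than those of nau (49) and twi (23). By fold the order of Mlc2 and Mef2 turned, with 6.97 at Mlc2 and 6.42 at Mef2, whose local background was higher.

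**Figure D3:**
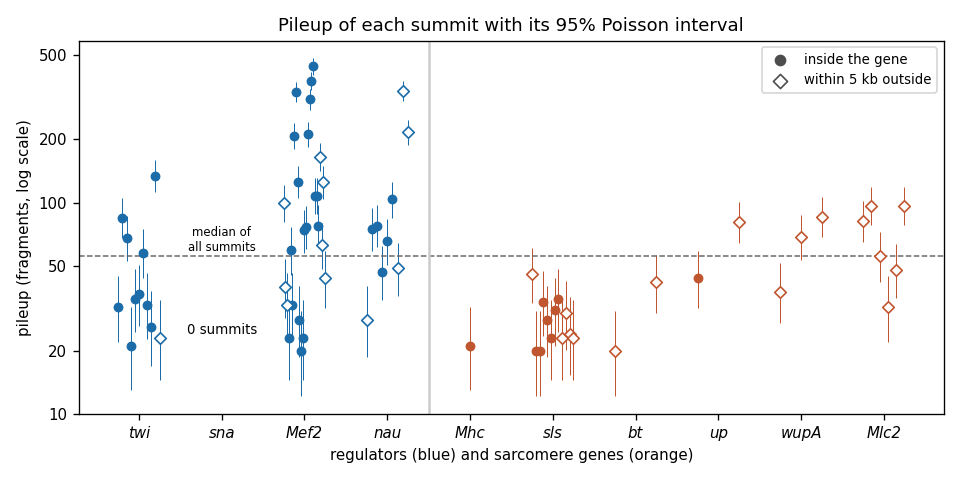
Pileup (fragments, log scale) of every member summit by gene, regulators left and sarcomere genes right, with 95% Poisson intervals for counting error; filled circles lie inside the gene and open diamonds within 5 kb outside, and the dashed line is the median of all summits, 56. Inside the sarcomere genes the highest pileup is 44, in up, while inside Mef2 it is 443.

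By position, the 2 groups were further apart inside the genes than beside them. Inside the spans the median pileup was 74 over 33 regulator summits and 28 over 9 sarcomere summits, whose highest was 44. In the flanks it was 56 over 12 regulator summits and 46 over 17 sarcomere summits. Of the sarcomere summits 9 of 26 lay within 250 bp of the end of another gene or inside another gene, as did 15 of the 45 regulator summits. The share over all summits is not given here, so whether these counts are unusual is not known. Intervals with several summits were 9 of 33 at regulators and 3 of 22 at sarcomere genes, against 18.3% of all intervals, and the median interval widths were 167 and 115 bp, against 139 bp. A −log10 q of at least 10 was reached by 28 of 45 regulator summits and 11 of 26 sarcomere summits, against 57.3% of all summits. The background stood at its genome-wide value for 19 of 45 regulator summits and 19 of 26 sarcomere summits, against 30.9% of all. Both groups thus exceeded the share of the list, although their median pileups were 68 and 34.5, above and below its 56. The tallest summits of wupA (86) and up (81) also stood on that background.

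Wider gene lists were described by their peaks at gene ends, and their densities did not repeat the contrast of the 10 genes. The median density over loci was 2.13 summits per 10 kb at myogenic and fusion genes and 2.15 at other sarcomere genes. This median was 3.01 at the 4 regulators and 1.22 at the 6 sarcomere genes. Of 16 myogenic and myoblast fusion genes, 10 had a peak at an end (62.5%). Their strongest end peaks were at apterous (ap, a LIM-homeodomain gene that also patterns muscle) with a pileup of 1912 and a fold of 22.7, at the fusion receptor gene kirre with 174 and a fold of 15.7, and at mbc, a guanine nucleotide exchange factor gene of fusion, with 184 and a fold of 12.6. Neither bap nor Him nor lmd, which encode transcriptional regulators of mesoderm and myoblasts, had one. Of 25 other sarcomere genes 9 had a peak at an end (36.0%), led by fold by tropomodulin (tmod, a fold of 26.8 and 512 fragments), α-actinin (Actn, 8.01 and 152) and Zasp52 (7.96 and 165). The rest of the 9 were Act57B (66 fragments), Tm1 (65), Mlc1 (61), sals (56), Act87E (26) and Act79B (21), among them muscle actin and myosin light chain genes. The flight muscle genes Act88F and fln had none and 0 summits inside, and Mf had none but 5 inside.

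All 10 non-muscle actomyosin genes had a peak at an end, led by fold by Mlc-c (a fold of 18.3 and 329 fragments), the actin capping subunit cpb (12.3 and 179) and the cofilin gene tsr (11.1 and 225). Some of these are direct counterparts of the sarcomere genes. The muscle heavy chain gene Mhc had 1 summit in its locus, with a pileup of 21, while zipper (zip), the non-muscle heavy chain gene of similar length (21.4 kb), had 23, of which 14 lay inside. The highest pileup inside zip was 288, and the highest of its locus, 335, lay in a flank. For the regulatory light chains, the highest pileup in the locus was 97 at Mlc2 and 209 at spaghetti squash (sqh), inside whose span 2 summits lay. For the essential light chains, it was 61 at Mlc1 and 329 at Mlc-c. The muscle gene was the lower one in each of these 3 pairs, and the intervals of the 2 pileups did not overlap in any of them. Each pileup is the highest of its locus, and the loci held unequal numbers of summits (Mlc2 6 and sqh 7, Mlc1 1 and Mlc-c 5). The intervals do not cover this choice of a maximum. These pileups are single values of 1 list, with no test.

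**Figure D4:**
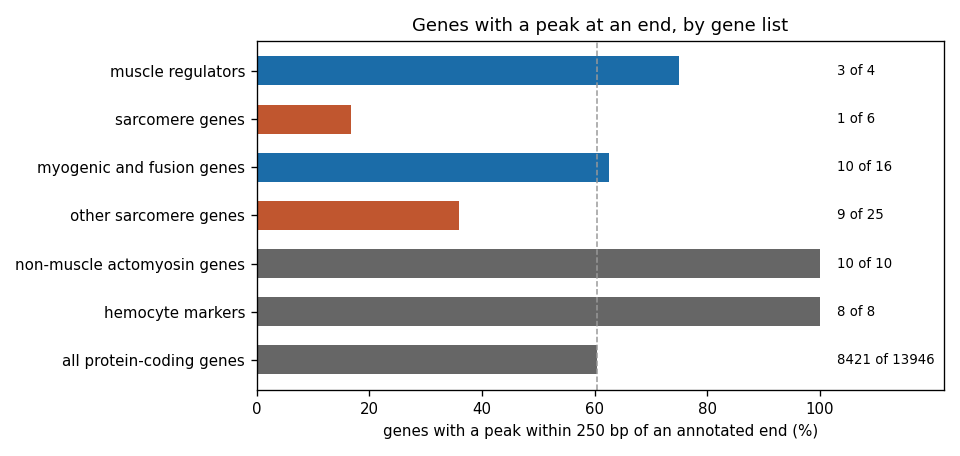
Share of genes with a peak within 250 bp of an annotated end (%), by gene list, with the counts at the right; the dashed line is the share of all protein-coding genes, 60.4%. The sarcomere genes (1 of 6) and the other sarcomere genes (9 of 25) lie below it, the regulators (3 of 4) and the myogenic and fusion genes (10 of 16) near or above it, and the non-muscle actomyosin genes (10 of 10) at the top. With stricter peaks the regulators and the sarcomere genes had 1 each, counts to which the dashed line does not apply.

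The contrast in density is a description of few genes. Over spans alone, regulators had 5.52 times the density of sarcomere genes, against 2.60 times with the flanks. The value over spans rests on 9 sarcomere summits and was 14.0 times without sls. With the flanks and without Mef2 the regulator density was 2.00 per 10 kb, the median fold 4.13 and the median pileup 53.5, against 56 over the whole list.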

How the data were processed

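ATAC-seq of S2 cells was deposited as 1 peak list for 2 libraries. Bowtie2, MACS2 and deepTools and the build dm6 are named by the submitters' processing notes. How the tools were set, whether libraries were pooled and how repeated sequence was treated is not given in the sources used here. The deposited fold enrichment is a ratio, and the −log10 p and −log10 q are the caller's values as deposited by the authors. The deposited score column was only inspected. Depth per library is unknown.

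Pileup and background were solved from fold and −log10 p (Poisson upper tail, pseudocount 1). All 35535 summits were met within 0.001 on the −log10 p. The word fragments comes from the names in the list. Extended reads, or mates counted apart, would make the intervals too narrow. The middle of the interval stood in for a missing summit in 65 lines, none of which (0) is a member.

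Gene spans came from a RefSeq table of Release 6 (17807 genes, 13946 of them protein-coding). All 10 members matched, and Unc-89 matched through a synonym, Obsc. Merged loci leave out Y. Scripts used Python 3.11.15, pandas 2.3.3 and scipy 1.17.1 and were tested on simulated data. The members, the wider lists and the settings were chosen with earlier results of these data known. In each wider list the 3 genes with the highest fold at an end and the first 3 by alphabet without an end peak are named. Among the other sarcomere genes, all those with an end peak are named. Counterparts of sarcomere genes and the genes in the closing observations were named after their values were seen. No sequence is given because no table of sequences was used here. Alternatives were stricter peaks, 1 line per interval, other flanks and windows, summits outside other genes and, added after the data were seen, each gene left out.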

Additional observations from a re-analysis of the deposited data

How the results depend on the processing

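Of 88 recomputed values 65 stayed within 1.5 times the reported one. With a −log10 q of at least 10 there were 28 summits at regulators and 11 at sarcomere genes (1.80 and 0.471 per 10 kb), with median folds of 6.59 and 5.90. With only folds at or above the list's median there were 25 and 10 (1.61 and 0.428 per 10 kb), with median folds of 6.87 and 6.16, and the medians rise here because weak sites are removed. Under either threshold 1 regulator (Mef2) and 1 sarcomere gene (Mlc2) kept an end peak. With no flank 9 sarcomere summits were left and with 2 kb 16. Their density fell as well, from 1.11 per 10 kb to 0.518 with no flank and 0.809 with 2 kb. The regulator density stayed at 2.86 and 2.97, against 2.89. Of the 26 sarcomere summits 17 lay in the flanks, as did 12 of the 45 regulator summits. A window of 1000 bp gave 2 sarcomere genes and 3 regulators with an end peak, and a window of 100 bp gave 1 and 2. With the summit itself in the window of 250 bp they were also 1 and 2. Shares of all protein-coding genes are not given for stricter peaks or for these other windows. Inside the spans, summits with folds at or above the median numbered 1.64 per 10 kb at regulators and 0.0575 at sarcomere genes, where a −log10 q of at least 10 also left 0.0575. Inside the spans, the sarcomere density was 0.204 to 0.739 with 1 gene left out, lowest without sls, and the regulator density 2.14 to 4.37, highest without twi. With the flanks, leaving out any of the 10 genes moved no density or median fold by over 1.5 times: regulators had 2.00 to 4.12 and sarcomere genes 0.906 to 1.40 summits per 10 kb. Regulators were denser under each of the 7 alternatives run on both groups, by 2.25 to 5.52 times. The alternative with only the 5′ start was not run, as the gene table gives no strand. No paired analysis was possible because the series has 1 list with no value per library. Depth limits what is seen: no summit under 20 fragments was listed.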

Other observations

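Genes of myoblast fusion differed in their number of accessible sites, although their proteins act together at the same membrane contact. The receptor gene sns, expressed in fusion-competent myoblasts, had 0 summits in its 57.6 kb span and its flanks, while kirre, the receptor gene of founder cells, had 78 summits inside its 394 kb. Having none in the locus is shared with 1676 of the 13946 protein-coding genes, and the density of kirre, 2.08 per 10 kb of locus, was below the median of 3.65. The span of kirre encloses rst, another gene of the same list, and the 6 summits of the rst locus are among the 78. The span of how, which encodes an RNA-binding protein of muscle and tendon, held 19 summits in 37.1 kb, and its locus had 4.67 per 10 kb. Among the troponin C genes, TpnC41C and TpnC4 had 0 summits in their loci, and TpnC25D had 1, in a flank. TpnC47D had 2, both in flanks, with a highest pileup of 101. TpnC73F had 12 in its flanks and 0 inside its 2.33 kb, and whether those 12 lie at other genes is not described here. These genes were picked after their values were seen, from the same list without replicates, and no test was made.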
